A study of Mus musculus with 17 samples.

Results

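The Sirt6 ChIP-seq libraries of untreated mouse embryonic stem cells were examined: 2 libraries from Sirt6 knockout (KO) cells and 1 from wild-type (WT) cells. The members are all peaks that the authors listed for these libraries, chosen by the antibody and genotype given in the sample labels. The WT list held 14510 peaks of the 35952 in the 11 peak lists of the series, and both KO lists held 0. KO and WT lines came from the 129 mouse strain, were kept on irradiated mouse fibroblast feeders with leukemia inhibitory factor, and were plated to remove the feeders; the knockout allele and the number of clones are not given in the sources used here. None of the 3 received retinoic acid, and no expression data were at hand to check the cells against stem cell markers. One antibody against Sirt6, from Cell Signaling Technology, was used for all 3 libraries, at amounts labelled 1 and 5 for the KO libraries and 1 for WT; the unit differs between label fields. Whole-cell extract of the same genotype served as the control library. The rest of the series profiled H3K9ac and H3K56ac in KO and WT cells with and without retinoic acid, and 5-hydroxymethylcytosine by CMS-IP. Each group held 1 library, so genotype differences rest on single libraries, without replicates, and are given as values with no test. Intervals are 95% intervals over peaks or tags and cover counting error only.

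Sirt6 is a chromatin enzyme of the sirtuin family that uses NAD to remove acetyl groups from histone H3, among them those at lysines 9 and 56. It is known as a corepressor at promoters, including those of glycolytic genes. ChIP-seq with an antibody to Sirt6 reads where the protein lies on DNA, and the same antibody in cells that lack the protein reads what it, the beads and the chromatin preparation give without it.

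The KO libraries were sequenced far more deeply than the WT library and gave no peak. After duplicate tags were removed, the KO library with the lower antibody amount held 40006795 tags, the KO library with the higher amount held 48956556 and the WT library held 2008232. The KO libraries therefore held 19.9 and 24.4 times the tags of the WT library. The peak caller, MACS2, scales the larger of ChIP and control down to the smaller, per the file headers. Both KO lists were thus called at the depth of their shared control, 5113859 tags, which is 2.55 times the depth at which the WT list was called. The WT control held 6251712 tags and was scaled by 0.321. In KO the Sirt6 tags were scaled instead, by 0.128 at the lower and 0.104 at the higher antibody amount, and the control was not.

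The genome-wide background that the headers imply was 0.522 and 0.484 scaled tags per position in the 2 KO libraries, against 0.236 in WT. The weakest WT peak had a −log10 p of 4.66. Reaching that p at the genome-wide background took a scaled pileup of 5 in either KO library, a fold enrichment of 3.94 at the lower antibody amount and 4.04 at the higher. In WT it took a pileup of 4, a fold of 4.04. This fold adds 1 to pileup and to background; the plain ratio of that pileup to the background was 9.57 and 10.3 in the KO libraries and 16.9 in WT. In unscaled tags that limit equals 40 at the lower and 48 at the higher antibody amount in KO, and 4 in WT. The p that a q limit of 0.01 asks for differs between lists and cannot be read from an empty one, so these values set the libraries side by side at 1 common p. They hold at the genome-wide background only, and places of raised control signal were not compared between the genotypes.

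The libraries also differed in duplicates and fragment length. Removing repeat tags at a position took away 3.04% and 2.89% of the KO tags and 8.58% of the WT tags, although the WT library was the shallowest. In the controls it took away 3.26% of the KO tags and 5.04% of the WT tags. The fragment length that MACS2 estimated was 191 bp and 177 bp in the KO libraries and 220 bp in WT. The part that these differences have in the absence of KO peaks was not tested.

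**Figure D1:**
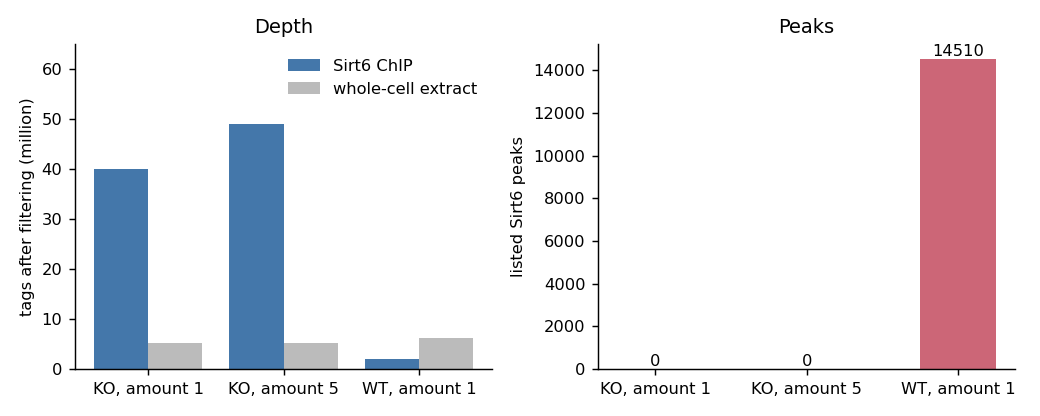
Left, tags after filtering (unit, 1e6 tags) for the Sirt6 ChIP (blue) and its whole-cell extract control (grey) of each library; right, listed Sirt6 peaks. The KO libraries have 40006795 and 48956556 ChIP tags and 0 peaks, and the WT library has 2008232 tags and 14510 peaks.

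WT Sirt6 peaks were short and rested on few tags. Their median length was 384 bp (379 to 389), with an interquartile range of 269 to 567 bp. The estimated fragment length of 220 bp was the shortest length listed, and 1460 peaks (10.1%) had exactly that length. Only 487 peaks reached 1000 bp and 10 reached 2000 bp. Together the peaks covered 6604613 bp, or 0.353% of the effective genome size used by the authors.

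The median pileup, the number of extended tags over the summit, was 10, and a count of 10 has an exact Poisson interval of 4.80 to 18.4. The lowest pileup was 4, and 515 peaks (3.55%) had 5 tags or fewer at the summit. A pileup of 20 or more was found at 867 peaks (5.98%). The summed summit pileup was 170295 tags, equal to 8.48% of the WT tags after filtering; 64 pairs of neighbouring summits lay closer than a fragment length, so few tags can have been counted at 2 summits.

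The median fold enrichment, the authors' ratio of summit pileup plus 1 to local background plus 1, was 8.08 (7.97 to 8.08). It was at least 5 at 13716 peaks (94.5%), at least 10 at 4107 (28.3%) and at least 20 at 113 (0.779%). Longer peaks had higher values. Across the 14510 peaks the rank correlation of length with pileup was 0.68 and that of length with fold was 0.70; all points share 1 library, and all 3 measures come from the same tags.

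Summits lay close to the middle of their peaks. On a scale where 0 is the start and 1 the end, the median summit position was 0.480 (0.477 to 0.484), a median of 7 bp to the left of the centre. Of all summits, 65.6% lay in the middle of their peak when it is cut into 3 equal parts. When it is cut into 10, 0.675% lay in the leftmost and 0.345% in the rightmost part.

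The deposited values also give the local control background at each summit. With the background computed from pileup and fold, a Poisson p matched the listed −log10 p within 0.01 at all 14510 peaks. After scaling, 1 control tag counted as 0.321. The background was at its lowest value, 0.237, at 5698 peaks (39.3%; 38.5% to 40.1%) within 0.0005, close to the genome-wide level of 0.236 from the header. It equalled 1 control tag at 3925 peaks (27.1%) and 2 control tags at 1385 (9.55%), within 0.005 of a tag. It was above the weight of 4 control tags at 218 peaks. At 7105 peaks (49.0%) the background was below the weight of 1 control tag, and no count of control tags can be read from it. The shared lowest value acts as a floor, so the whole-cell extract at those peaks may lie below it. Most WT Sirt6 peaks thus stood where the local background was at or near the genome-wide level.

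A small set of peaks stood on high control signal. At 84 peaks (0.579%) the scaled background was 10 or more. Their median pileup was 84, their median fold 3.61 and their median length 241.5 bp, against 10, 8.08 and 385 bp at the other 14426. Of the 84, 70 had a fold under 5, as had 724 of the others (5.02%). The 84 held 5.87% of the summed pileup and 29 of the 42 peaks with a pileup of 100 or more. Of them, 26 lay on unplaced contigs. The limit of 10 was chosen after the values were seen.

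**Figure D2:**
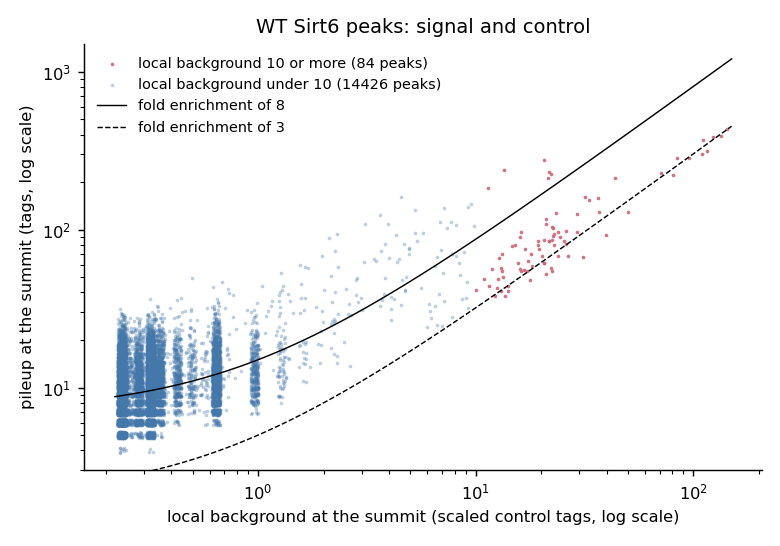
Each point is 1 WT Sirt6 peak; the x axis is the local background at its summit in scaled control tags and the y axis its pileup in tags, both on log scales, with points spread slightly to separate ties. The 84 peaks with a background of 10 or more (red) lie mostly near the line for a fold of 3, and the other 14426 (blue) gather at backgrounds of 0.237 and at whole numbers of control tags. At backgrounds of 10 or more, a fold near 3 means about equal numbers of unscaled Sirt6 and control tags.

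The highest peaks differed with the measure used to rank them. By pileup, the first was on chromosome 2 from 98506350 to 98507548 (mouse build mm9, as are all positions), with 440 tags over a background of 140, a fold of 3.13. With 1 tag kept per position and strand and fragments of 220 bp, 440 is the highest pileup possible. The next were on chromosome 9 from 3000013 to 3038354, with 408 tags and a fold of 2.99, and on chromosome 9 from 35112773 to 35113245, with 380 tags and a fold of 3.12. The peak that starts at 3000013 was also the longest, at 38342 bp, and no other exceeded 2622 bp. All 5 peaks with the highest pileup had a fold between 2.80 and 3.22 and were overlapped by peaks of all 8 acetylation lists. In rank order they had 440, 408, 380, 358 and 317 tags, over backgrounds equal to 436, 423, 377, 344 and 350 control tags. Unscaled Sirt6 and control tags were thus close in number at these 5, and their fold reflects the weight of 0.321 per control tag.

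By fold enrichment, the first peak lay on chromosome 14 from 120876947 to 120877540. It had 49 tags (exact Poisson interval 36.3 to 64.8) over a background of 0.503, a fold of 33.3, and no acetylation list had a peak there. Ranked 4 by fold, a peak on chromosome 8 from 125091873 to 125092872, had 37 tags over the weight of 1 control tag, a fold of 28.8, and 1 of the 8 acetylation lists had a peak there. The other 3 of the 5 highest stood on backgrounds equal to 6.62, 14 and 7 control tags and were overlapped by 7, 8 and 8 of the lists. High fold was thus reached both over a low control background and over a higher one. Over all WT Sirt6 peaks each untreated list touched between 1.03% and 9.30%, and the shares of the retinoic acid lists are not given here. Nothing particular is therefore read from the absence of lists at a peak.

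By −log10 q, the first was on chromosome 11 from 45538107 to 45538497, with a −log10 q of 195. It had 241 tags over a background equal to 43 control tags. The peak on chromosome X from 60379596 to 60379940 followed, with 265 tags over a background equal to 66 control tags. All 5 peaks with the highest −log10 q had a background equal to 14 to 70 control tags and lay under peaks of all 8 acetylation lists.

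The longest peaks after the first had a higher fold over a lower background than the first. They lay on chromosome 14 from 106293646 to 106296267 (2622 bp, fold 24.0), chromosome 12 from 88223563 to 88225746 (2184 bp, fold 16.2), chromosome 13 from 101420375 to 101422523 (2149 bp, fold 11.4) and chromosome 8 from 87560781 to 87562857 (2077 bp, fold 21.2). Their backgrounds lay between 0.237 and 0.709. At most 1 of the 8 acetylation lists had a peak at any of these 4. Over all WT Sirt6 peaks each untreated list touched between 1.03% and 9.30%, so nothing particular to these 4 is read from that.

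WT Sirt6 peaks lay at 2 scales of distance from each other. Of the 14480 gaps between neighbouring peaks on the same chromosome or contig, 1605 were over 200 and up to 500 bp, only 161 were over 1000 and up to 2000 bp, and 1904 were over 50000 and up to 100000 bp. The last 2 ranges each span a doubling of distance, as does that over 500 and up to 1000 bp, which held 572. The smallest gap was 26 bp, 1 more than the tag size of 25 bp. The median gap to the nearest other peak was 789 bp (707 to 925), but it depended on which peaks were counted: it was 1493 bp at a fold of at least 5, 38125 bp at −log10 q of at least 10 and 38870 bp after peaks within 1000 bp were joined.

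Of the peaks, 51.2% had another within 1000 bp (50.4% to 52.0%) and 59.9% had one within 10000 bp (59.1% to 60.7%). Joining peaks within 1000 bp left 10304 regions, of which 7084 held 1 peak, 2462 held 2 and 44 held 5 or more. Between neighbours that close, the median distance of summits was 619 bp (607 to 628), and 47.6% of the distances lay over 400 and up to 700 bp. In the regions of 2 peaks the higher peak had a median fold of 9.84 and the lower one of 6.47. Peaks with no other within 1000 bp had a median fold of 8.12 (8.08 to 8.33). At −log10 q of at least 10 the share of peaks with another within 10000 bp was 29.2%, and after joining within 1000 bp it was 17.6%.

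**Figure D3:**
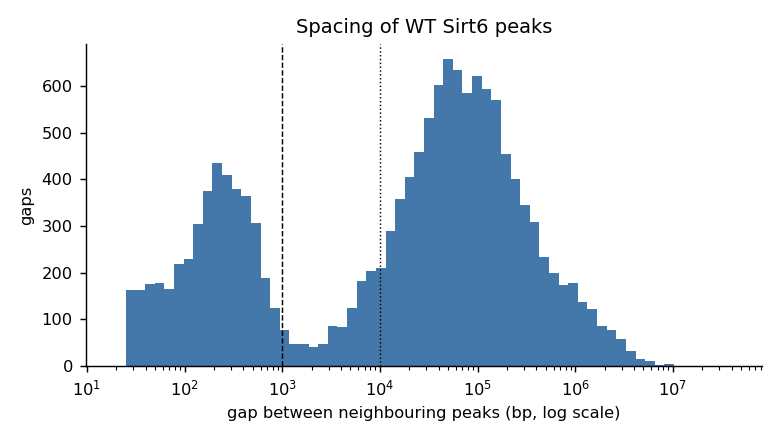
Histogram of the 14480 gaps between neighbouring WT Sirt6 peaks, in bp on a log scale; the dashed line marks 1000 bp and the dotted line 10000 bp. The gaps form 2 groups, with only 161 over 1000 and up to 2000 bp between them.

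Joining within 10000 bp gave 9299 regions, and 140 of them held 5 or more peaks. The largest held 12 peaks each and lay near each other on chromosome 6, from 47689983 to 47722669 and from 47605064 to 47635784. Their peaks had median folds of 11.6 and 12.2 and median gaps of 3462 and 3499 bp, longer than the 1000 bp within which 51.2% of all peaks had a neighbour. The other 3 of the 5 largest were on chromosome 8 from 87489123 to 87514923 with 11 peaks, on chromosome 11 from 69469236 to 69495977 with 10, and on chromosome 7 from 13609022 to 13639834 with 10. Their median gaps were 698, 565 and 481 bp. No peak of the untreated acetylation lists touched a Sirt6 peak of the first 3 clusters, and in each of the last 2 the untreated KO H3K9ac list touched 1 peak. In the cluster on chromosome 11 the untreated KO H3K56ac list also touched 1. Over all WT Sirt6 peaks the KO lists touched 9.30% for H3K9ac and 4.03% for H3K56ac, and the WT lists 1.03% and 2.20%, so nothing particular to the clusters is read from counts of 0 or 1 among 10 to 12 peaks.

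The 1 Mb windows with the most peaks were on chromosome 10 from 80000001 to 81000000, with 56, and on chromosome 11 from 69000001 to 70000000, with 53. Another 53 lay on chromosome 11 from 120000001 to 121000000. Chromosome 7 held 52 from 134000001 to 135000000, and 51 between 52000001 and 53000000. The window on chromosome 11 from 69000001 held the cluster of 10 peaks named above.

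Sirt6 peaks were unevenly spread over the chromosomes. Over the length from the first to the last position that any deposited file gives, chromosome 11 held 10.4 peaks per Mb (exact Poisson interval 9.80 to 10.97), chromosome 19 held 8.75 (8.01 to 9.54) and chromosome 17 held 8.51 (7.92 to 9.12). The fewest were on chromosomes 3, with 4.18 (3.87 to 4.52), 1, with 3.97 (3.70 to 4.27), and X, with 1.57 (1.38 to 1.77). The 19 autosomes had a median of 5.99. Chromosome Y held 2 peaks and contigs named random 62, of which 38 were on the unplaced contig.

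The acetylation lists of untreated cells were spread in another way. Chromosome X held 1.77% of the Sirt6 peaks on autosomes and X (1.57% to 2.00%). It held 7.25% of the KO and 10.0% of the WT H3K9ac peaks (6.44% to 8.17% and 8.92% to 11.2%), and 8.51% of the KO and 10.0% of the WT H3K56ac peaks. Chromosome 11 held 8.54% of the Sirt6 peaks (8.09% to 9.002%), against 4.41% of the KO and 2.60% of the WT H3K9ac peaks and 3.48% of the KO and 2.88% of the WT H3K56ac peaks. Per the file headers, MACS2 was given no control for the acetylation libraries.

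Peak height and control background both differed between chromosomes. On chromosome 8 the 926 peaks had a median pileup of 12 (12 to 13) and a median fold of 9.30 (9.08 to 9.74). On the other autosomes the medians lay between 9 and 10 tags and between 7.57 and 8.08. On chromosome 8 only 9.50% of the peaks were at the lowest control background (7.78% to 11.6%), against 30.9% to 47.1% on the other autosomes. Chromosome 8 held 30 of the 113 peaks with a fold of 20 or more, chromosome 14 held 15 and chromosome 17 held 9. On chromosome X the median pileup was 7 (7 to 8), the median fold 6.47 and the share at the lowest background 60.2% (54.1% to 66.0%). The mean background went another way, counted over peaks with a background under 10. It was 0.448 on X and 0.446 on chromosome 8, against 0.334 to 0.425 on the other autosomes. With 60.2% of the X peaks at the lowest background, the mean on X was raised by the remaining peaks.

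Chromosome 14 was divided. Its 83 peaks beyond 85 Mb had a median pileup of 17 (14 to 24) and a median fold of 10.96 (8.30 to 12.8), and 1 of them was at the lowest background. Its 460 peaks up to 85 Mb had a median pileup of 10 (9 to 10) and a median fold of 7.85, and 167 of them, or 36.3% (32.0% to 40.8%), were at the lowest background. Beyond 85 Mb on the 15 other autosomes with at least 20 peaks there, chromosome 8 apart, median pileups lay between 9 and 10 and the share at the lowest background between 36.5% and 57.9%. On chromosome 8 the median was 13 beyond 85 Mb and 12 before it. The boundary was chosen after the values were seen. Fewer peaks at the lowest control background went with the higher pileup, and the part of the control in the result was not tested.

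**Figure D4:**
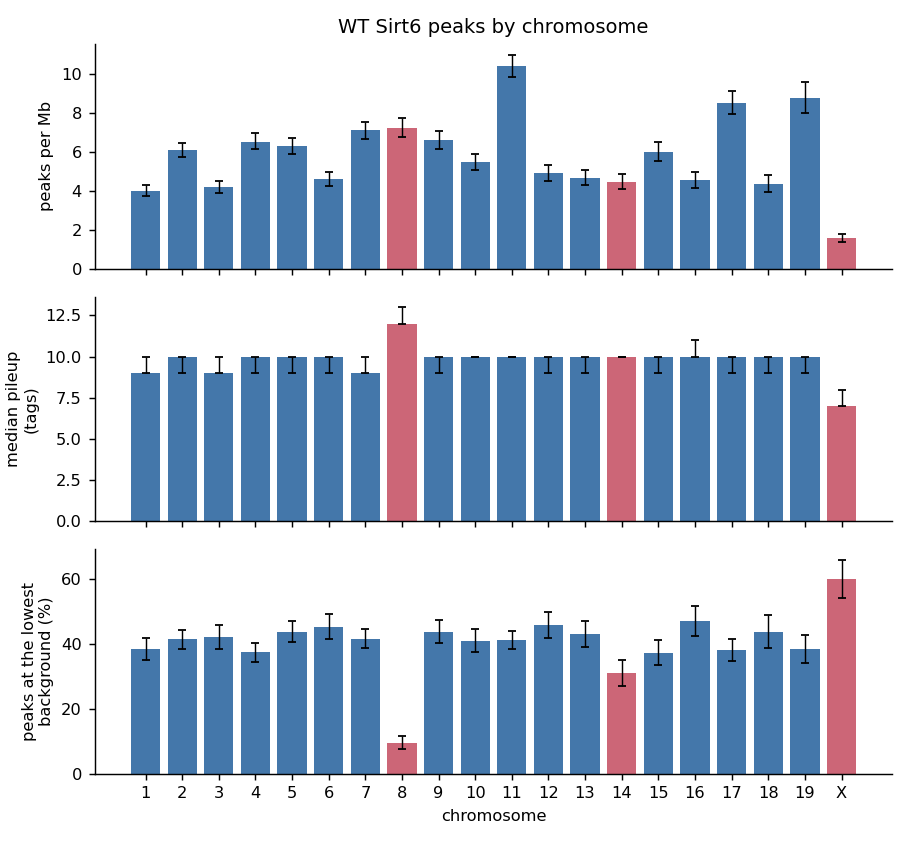
For each chromosome, peaks per Mb with exact Poisson intervals (top), median pileup in tags with order-statistic intervals (middle) and the percent of peaks at the lowest control background with Wilson intervals (bottom); chromosomes 8, 14 and X are red. Chromosome 11 has the most peaks per Mb at 10.4 and X the fewest at 1.57, while chromosome 8 has the highest median pileup, 12, and the smallest share at the lowest background, 9.50%.

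The lists of acetylated histone H3 in untreated cells gave a readout that the choice of peaks did not use. The lists came from 7217855 KO and 7719553 WT tags for H3K9ac, and from 5782181 KO and 7790807 WT tags for H3K56ac, and held 3593 KO and 2789 WT H3K9ac peaks and 2235 KO and 2750 WT H3K56ac peaks. The fragment length estimated by MACS2 was 212 bp in KO and 155 bp in WT for H3K9ac, and 224 bp in KO and 175 bp in WT for H3K56ac. Overlap was at least 1 bp. No control entered these lists, so the shares are given by the local background of the Sirt6 peak.

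Over all 14510 WT Sirt6 peaks, 1349 were overlapped by a KO H3K9ac peak, or 9.30% (8.84% to 9.78%), and 150 by a WT H3K9ac peak, or 1.03% (0.882% to 1.21%). For H3K56ac 585 were overlapped in KO, or 4.03% (3.72% to 4.36%), and 319 in WT, or 2.20% (1.97% to 2.45%). With −log10 q of at least 10 in both lists the shares were nearer to each other, at 4.02% in KO and 1.77% in WT for H3K9ac and at 3.03% in KO and 2.53% in WT for H3K56ac. That limit left 1922 of the 3593 KO and 2353 of the 2789 WT H3K9ac peaks. For H3K56ac it left 1536 of the 2235 KO and 2248 of the 2750 WT peaks.

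Most of the WT overlap lay on raised control signal: 212 of the 1349 peaks touched by the KO H3K9ac list had a local background of 1 or more, against 144 of the 150 touched by the WT list. The limit of 1 was chosen after the values were seen. At Sirt6 peaks with a local background under 1, the WT H3K9ac list was nearly empty. Of these 14213 peaks, 1137 were overlapped by a KO H3K9ac peak, or 8.00% (7.56% to 8.46%), and 6 by a WT H3K9ac peak, or 0.0422% (0.0193% to 0.0921%). For H3K56ac the numbers were 386 in KO, or 2.72% (2.46% to 2.996%), and 133 in WT, or 0.936% (0.790% to 1.11%). Both marks were thus listed at more of these peaks in KO than in WT, with 1 library each. With −log10 q of at least 10 in both lists, 6232 of these peaks were left. Of them 95 were overlapped in KO H3K9ac, or 1.52%, and 0 in WT H3K9ac, with a Wilson upper limit of 0.0616%. At that limit 35 were overlapped in KO H3K56ac, or 0.562% (0.404% to 0.780%), and 14 in WT H3K56ac, or 0.225% (0.134% to 0.377%).

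The genotypes were close at the peaks with a background of 10 or more, but not for H3K9ac at those from 1 to under 10. Of the 84 with a background of 10 or more, 81 were overlapped in the KO and 75 in the WT H3K9ac list, and 79 in the KO and 80 in the WT H3K56ac list. These 84 held 75 of the 150 Sirt6 peaks that the WT H3K9ac list touched, and 81 of the 1349 that the KO list touched. Of the 213 with a background from 1 to under 10, 131 were overlapped in the KO and 69 in the WT H3K9ac list, and 120 in the KO and 106 in the WT H3K56ac list.

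**Figure D5:**
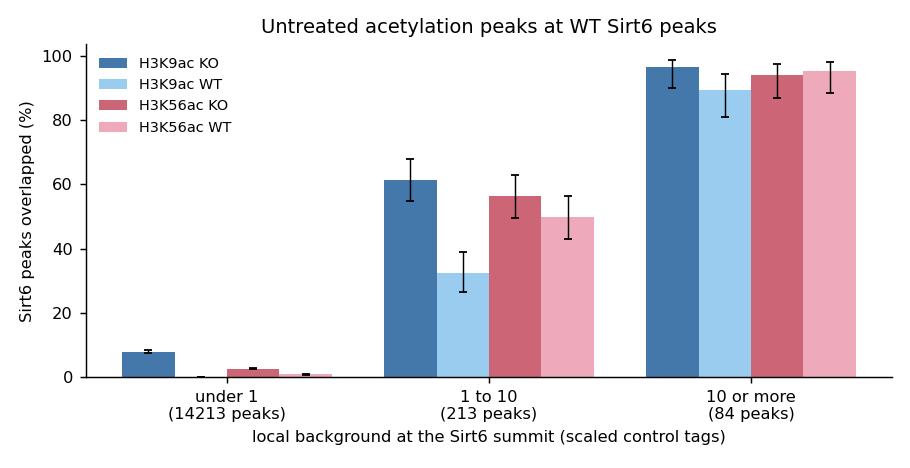
Percent of WT Sirt6 peaks overlapped by each untreated acetylation list, for peaks grouped by local control background in scaled tags, with Wilson intervals. Under a background of 1 the share is 8.00% for KO H3K9ac and 0.0422% for WT H3K9ac, and at 10 or more all 4 lists reach at least 89.3%.

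Among peaks with a local background under 1, taller Sirt6 peaks were more often overlapped by KO H3K9ac and both H3K56ac lists. Longer ones were more often overlapped by both KO lists. By pileup, the share for KO H3K9ac was 1.54% at 4 to 7 tags (1.19% to 1.98%), 4.27% at 8 to 10, 9.44% at 11 to 13 and 19.6% at 14 or more (18.2% to 20.98%). By length, the KO H3K9ac share was 2.65% up to 269 bp (2.17% to 3.23%), 4.30% from 270 to 384 bp, 7.99% from 385 to 567 bp and 16.95% above that (15.8% to 18.2%). In the same bands the WT H3K56ac share was 0.423%, 0.256%, 0.642% and 2.41%, with no steady rise. The 6 peaks overlapped in WT H3K9ac were too few to give a trend; all 6 were up to 269 bp long, and their pileups fell in all 4 bands. The peaks overlapped in KO H3K9ac had a median length of 588 bp (569 to 603) and a median fold of 11.2, against 373 bp and 7.72 for the 13076 that were not.

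Sirt6 peaks that stood alone were overlapped by KO H3K9ac more often, counted peak by peak. With a background under 1, the KO H3K9ac share was 11.05% of peaks with no other within 10000 bp (10.3% to 11.9%) and 5.996% of those with one (5.51% to 6.52%). The WT H3K9ac list touched 6 of the 5640 lone peaks and 0 of the 8573 others, the latter with a Wilson upper limit of 0.0448%. At all backgrounds, the KO H3K9ac share was 12.5% of peaks with no other within 1000 bp and 6.28% of those with one (5.75% to 6.85%). Counted by region joined within 1000 bp, also at all backgrounds, the share was no higher for lone peaks. It was 12.5% of regions with 1 peak (11.7% to 13.3%), 12.6% with 2 (11.3% to 13.96%) and 16.1% with 3 or more (13.7% to 18.9%).

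Most acetylation summits of each list had no Sirt6 summit within 1000 bp. The distances given here are those of the rest. Within 1000 bp of a Sirt6 summit there were 1381 KO H3K9ac summits, or 38.4% of that list, and 169 WT H3K9ac summits, or 6.06%. For H3K56ac there were 600 KO summits, or 26.8%, and 333 WT summits, or 12.1%. The distance moved with the control signal at the Sirt6 peak, which differed between the lists. Where the nearest Sirt6 summit had a background under 1, the median distance was 77 bp for 1160 KO H3K9ac summits (72 to 84), and the 7 WT H3K9ac summits lay 3 to 855 bp away. For H3K56ac it was 66 bp for 392 KO summits (58 to 79) and 63 bp for 133 WT summits (45 to 80). At a background of 1 or more it was 13 bp for 221 KO and 19.5 bp for 162 WT H3K9ac summits, and 11 bp for 208 KO and 21 bp for 200 WT H3K56ac summits.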

How the data were processed

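The submitters' processing notes name BWA 0.5.9, Picard, MACS2 2.0.10 and the mouse build mm9; the role of Picard is not stated there. Each library had its own peak list. Per the file headers, MACS2 set each Sirt6 library against whole-cell extract, with a q limit of 0.01 and 1 tag kept per position. For each peak the deposited lists give the pileup signal at the summit, a fold enrichment over local background and a −log10 p and −log10 q, all computed by the authors with MACS2. The authors' deposited table of CMS-IP counts was used only for the positions of its windows.

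Gaps, joined regions, densities, overlaps and summit distances were computed from the listed positions. Local background was solved from pileup and fold. Shares carry Wilson intervals, counts exact Poisson intervals and medians order-statistic intervals. Chromosome lengths of mm9 were not given, so density uses the length spanned by positions in the deposited files. No annotation or sequence of mm9 was used, so genes at the peaks were not analysed here and no sequence is printed. Pileup and length bands were bounded by the quartiles, with tied values kept in 1 band. Named items were the 5 highest peaks by fold, length, pileup and −log10 q, the 5 largest clusters and 1 Mb windows, and the 3 densest and sparsest chromosomes. The members, lists and groupings were chosen with earlier results of these data known. The steps were tested on simulated data. Alternatives were stricter q and fold limits, autosomes only, joined peaks, other distances and 50% overlap; leaving out chromosome 8 or peaks with a background of 10 or more or of 1 or more, the last also with the q limit, was added after seeing the data. Computation used scipy 1.17.1, statsmodels 0.14.6, pandas 2.3.3 and numpy 2.4.6 under Python 3.11.15, and figures matplotlib 3.10.9.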

Additional observations from a re-analysis of the deposited data

How the results depend on the processing

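With −log10 q of at least 10, 6438 WT peaks were left; their median length was 548 bp, fold 10.96, pileup 14, summit position 0.490 and gap to the nearest other 38125 bp, and 29.2% had another within 10 kb. With that limit on both lists, 4.02% were overlapped by KO and 1.77% by WT H3K9ac, and 3.03% by KO and 2.53% by WT H3K56ac. The density of the densest chromosome was then 13.8 times that of X, against 6.61 with all peaks. With a fold of at least 5 the median length was 399 bp, the gap 1493 bp and the share within 10 kb 57.8%. With peaks joined within 1000 bp these were 572 bp, 38870 bp and 17.6%, with a fold of 8.89 and a pileup of 11. Counting neighbours within 5 kb or 20 kb gave 55.3% and 66.8%. On autosomes only, the overlap was 0.740% for WT H3K9ac, and 3.69% in KO and 1.86% in WT for H3K56ac. Without peaks of background 10 or more it was 8.79% in KO and 0.520% in WT for H3K9ac, and 3.51% in KO and 1.66% in WT for H3K56ac. With a background under 1 it was 8.00% in KO and 0.0422% in WT for H3K9ac, and 2.72% in KO and 0.936% in WT for H3K56ac; with −log10 q of at least 10 in both lists as well, it was 1.52% in KO and 0% in WT for H3K9ac, and 0.562% in KO and 0.225% in WT for H3K56ac. KO shares were above WT shares of the same mark under each of these settings. Of 70 recomputed values, the densities of single chromosomes apart, 33 stayed within their interval, or for counts and the density ratio within 1.5 times. Densities of the 20 chromosomes were all lower, beyond their intervals, with the q limit and after joining, and all 20 stayed within them over the span of the Sirt6 peaks themselves; the causes of the other changes were not tested, beyond the smaller or merged lists that the settings make. Chromosome 11 was the densest and X the sparsest under each of the 3 density settings. The WT library held 2008232 tags, and how many more peaks a deeper library would give was not tested. No paired analysis was possible because each group held 1 library.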

Other observations

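The longest stretch without a Sirt6 peak on an autosome or X was 14.03 Mb, on chromosome X from 112257380 to 126284448, and the longest on an autosome was 12.6 Mb, on chromosome 15. On chromosome X, 33.2% of the peaks had another within 10 kb, against 68.6% on chromosome 8 and 67.3% on chromosome 19. At all backgrounds, of the 256 Sirt6 peaks on X 28 were overlapped in KO and 12 in WT H3K9ac, or 10.9% (7.68% to 15.4%) and 4.69% (2.70% to 8.01%). Of the 926 on chromosome 8 the numbers were 70 in KO and 3 in WT, or 7.56% (6.03% to 9.44%) and 0.324% (0.110% to 0.948%). Over all WT Sirt6 peaks the H3K9ac shares were 9.30% in KO and 1.03% in WT. Both KO intervals hold 9.30%, so nothing particular to either chromosome is read from the KO counts. The peaks on the unplaced contig had a median pileup of 52.5 and a median fold of 3.42.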
